A study of Homo sapiens with 2 samples.

Results

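The genes that carry out and restrain cell death were examined as a set of 36 members, made up of caspases, the BCL2 family, the apoptosome, inhibitors of apoptosis and the adaptors of death receptors. Members were named for their role in the machinery, and a probe set of the array was taken for a member when the platform annotation assigned it to that symbol alone. By this rule 35 of the 36 members were read by 110 probe sets, of 19775 genes and 54613 probe sets in all. RIPK1 was not analysed here. A further 2 probe sets that name a member together with another gene were not used.

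The study compared a pair of stable lines made from AGS, a human gastric adenocarcinoma cell line, to learn which genes differ when the tumour suppressor WTX (AMER1) is overexpressed. AGS.W, labelled as the WTX Overexpression group, had been infected with a lentivirus that carries the coding region of WTX. Puromycin selection is stated for the stable overexpression lines. AGS.veh, labelled as the Negative control group, was its control, and what it had been infected with is not given in the sources used here, nor whether a line is a clone or a pool. Each line was read on 1 Affymetrix U133 Plus 2.0 array, so no replicate, error or test exists and every difference below is one between 2 cultures. In such bulk RNA, fewer cells that express a gene and less RNA per cell cannot be told apart.

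Apoptosis runs along a pair of routes that meet at the executioner caspases. In the mitochondrial route, BH3-only proteins sense stress and free BAX and BAK1 from their anti-apoptotic BCL2 relatives, cytochrome c leaves the mitochondria, and APAF1 assembles the apoptosome that switches on caspase-9. In the death receptor route, ligand-bound receptors recruit FADD and caspase-8, which CFLAR restrains, and caspase-8 can cut BID to engage the mitochondria. A separate branch, the inflammatory caspases CASP1 and CASP4, drives pyroptosis and cytokine release in place of apoptosis.

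Both arrays had nearly the same scale, with a median log2 signal of 4.03 in AGS.veh and 4.02 in AGS.W. WTX itself, on a single probe set, had log2 signals of 3.86 in AGS.veh and 3.70 in AGS.W, each under its array's median. Whether that probe set lies in the coding region of the vector was not settled here. The extraction label names a brain tissue, whereas the other labels name AGS. Of 7 measured epithelial markers 5 reached the array median, among them KRT8 and KRT18, while KRT19 and CDH17 did not. Of brain markers 5 of 8 reached it (GAD1, MBP, SLC17A7, MOG and RBFOX3), with GFAP, AQP4 and SYT1 below. The brightest of them, GAD1, had 7.11 in AGS.veh and 7.06 in AGS.W. Of immune markers 1 of 4 reached it (CD3E), with PTPRC, CD14 and LYZ below. Fibroblast markers reached it for 3 of 5 genes. None of these markers was 2-fold apart, and their summed log2 signals in AGS.veh and AGS.W were 46.3 and 47.0 for epithelium, 34.2 and 35.8 for brain, 11.5 and 11.8 for immune cells and 16.7 and 17.6 for fibroblasts.

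In AGS.W the inflammatory protease gene CASP1 was lower than in AGS.veh on every probe set that read it, the BH3-only gene BID was lower on all 3 of its probe sets, and the apoptosome protease gene CASP9 was higher. The remaining members differed by less than 2-fold on all their probe sets. A gene was read through its brightest probe set on average, and 32 members passed a signal filter, meaning a signal no lower than the array median in 1 line or both. Of these, 1 (CASP9) was 2-fold or more higher in AGS.W and 1 (CASP1) was lower by as much. Over all 12811 genes that passed the filter, 1.83% were higher and 1.94% lower by 2-fold or more, so counts of 1 in 32 lie near the background. At 1.5-fold, 2 members were higher (CASP9 and HRK) and 4 lower (CASP1, CASP4, BID and CASP8), against 6.64% and 7.37% of all genes. No member reached 3-fold on its brightest probe set, which 0.437% of all genes did upward and 0.445% downward. Of the 32 members 18 were lower by any amount, against 50.5% of all genes, and their median log2 difference was -0.10, against -0.01 over all genes. Counted as probe sets, 79 of 110 passed the filter, of which 1 was higher and 6 were lower by 2-fold or more, against 1.94% and 1.93% of all probe sets with 1 gene. At 1.5-fold these were 4 and 10, against 7.01% and 7.32%, and at 3-fold 0 and 2, against 0.420% and 0.424%. The 6 that were 2-fold lower belong to CASP1 and BID alone and are repeated readings of the same RNA.

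**Figure D1:**
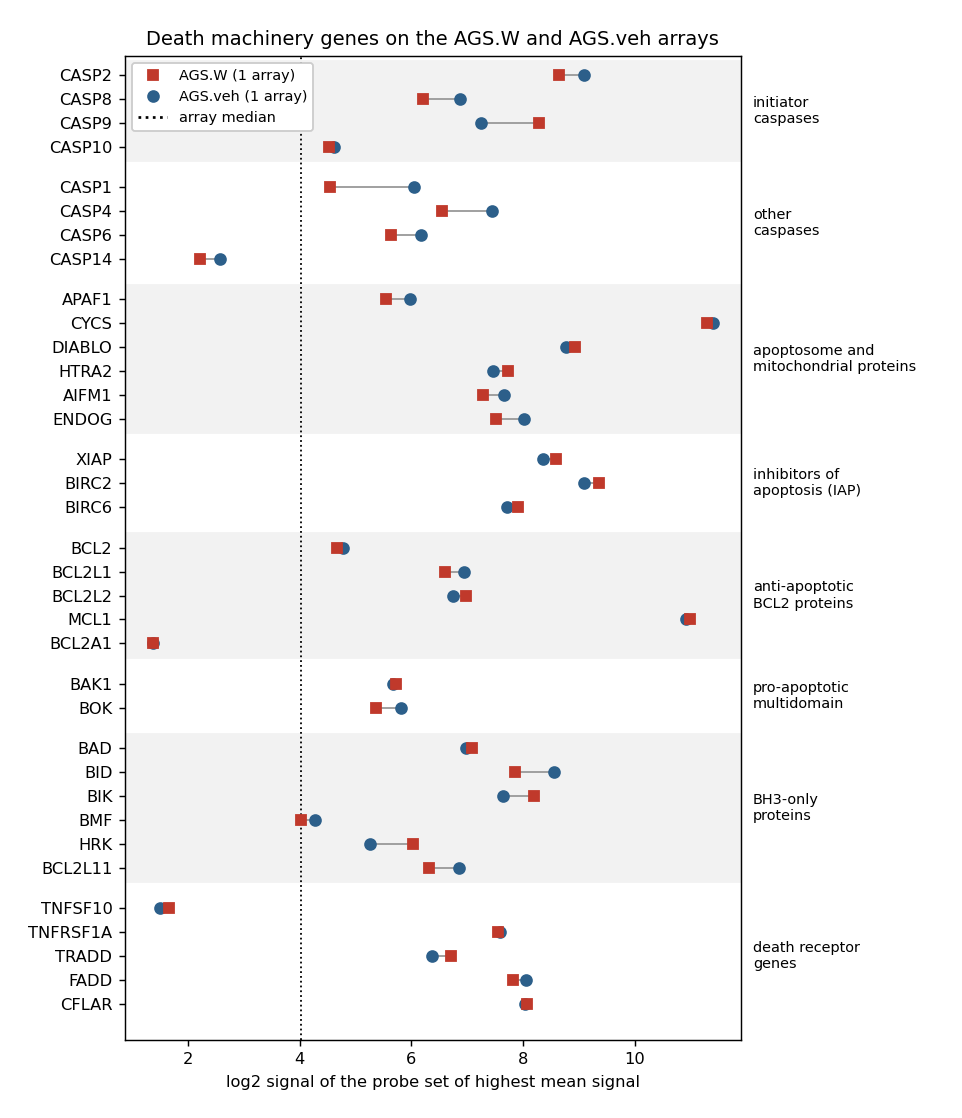
Log2 signal (horizontal axis) of each member gene on the AGS.W array (squares) and the AGS.veh array (circles), each read by its brightest probe set, with members grouped by role and a dotted line at the array median. The widest gaps are those of CASP1, 6.05 in AGS.veh against 4.54 in AGS.W, and CASP9, 7.25 against 8.28, while CASP14, BCL2A1 and TNFSF10 lie below the median on both arrays.

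**Figure D2:**
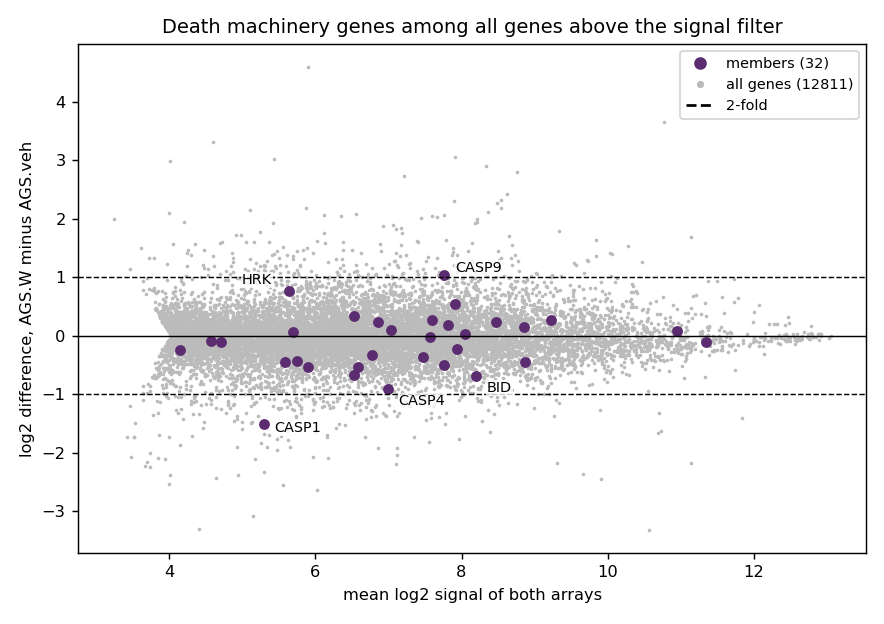
Log2 difference AGS.W minus AGS.veh (vertical axis) against mean log2 signal of both arrays (horizontal axis) for the 32 members above the signal filter and all 12811 genes above it, with dashed lines at 2-fold. CASP9 lies just above the upper line at 1.03 and CASP1 below the lower line at -1.51, and the other members lie between the lines.

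Among the inflammatory and other non-initiator caspases, all 8 probe sets above the filter were lower in AGS.W, against 49.8% of all probe sets with 1 gene, but they read only 3 genes, CASP1, CASP4 and CASP6. CASP1, the protease that matures interleukin-1 beta and interleukin-18, was read by 5 probe sets. The brightest (211366_x_at) had signals of 6.05 in AGS.veh and 4.54 in AGS.W on the log2 scale, a 2.86-fold lower level that lay above the median on both arrays. Another (209970_x_at) had 5.08 and 3.71 in the same order, the next (211368_s_at) 5.21 and 2.30, and a further one (211367_s_at) 4.55 and 2.41. On these 3 the AGS.W signal lay under the array median, and the measured differences of -1.37, -2.91 and -2.14 are not firm there in size. With the AGS.W signal raised to the median, they were at least 2.08-fold, 2.28-fold and 1.44-fold lower. The remaining probe set (206011_at) was below the median on both arrays, with 1.87 and 1.52.

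All 4 CASP1 probe sets above the filter carry the suffix _x_at or _s_at, which marks probes that can match several transcripts, and the remaining one, which lacks it, lay below the median on both arrays. CARD16, a gene of closely similar sequence beside CASP1, had log2 signals of 1.58 on both arrays on one probe set and of 1.96 in AGS.veh and 0.97 in AGS.W on another, all below the median. Its part in the CASP1 readings was not tested.

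CASP4, which senses bacterial lipopolysaccharide in the cytosol, was also lower. Its probe sets had log2 signals of 7.45 in AGS.veh and 6.54 in AGS.W, and of 6.30 and 5.90, all above the median. The differences of -0.91 and -0.41 share a direction and stay under 2-fold. CASP4 lies in the same cluster on chromosome 11 as CASP1, with 1 protein-coding gene, CASP5, between them. CASP6, an executioner caspase, had differences of -0.54 and -0.22. CASP14, a caspase of skin differentiation, was below the median on both arrays with 2.58 and 2.22.

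**Figure D3:**
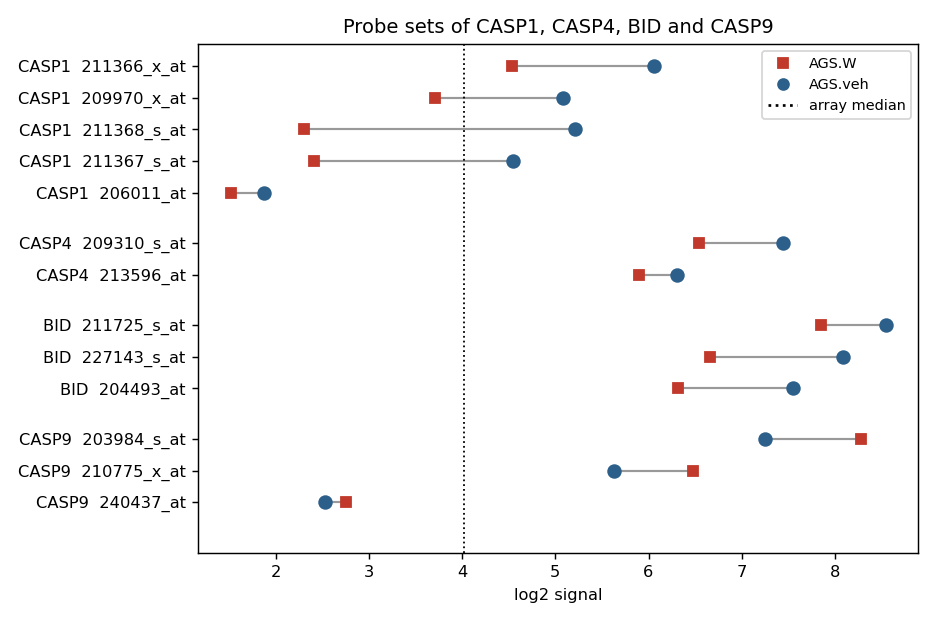
Log2 signal (horizontal axis) of every probe set of CASP1, CASP4, BID and CASP9 (vertical axis) on the AGS.W array (squares) and the AGS.veh array (circles), with the array median as a dotted line. AGS.W lies left of AGS.veh on all 10 probe sets of CASP1, CASP4 and BID and right of it on the 3 of CASP9, and 3 of the CASP1 probe sets cross the median.

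Of the initiator caspases, CASP9 was the one with a higher signal in AGS.W. Its brightest probe set (203984_s_at) had 7.25 in AGS.veh and 8.28 in AGS.W, or 2.05-fold higher, and the next (210775_x_at) 5.63 and 6.47, or 1.80-fold higher. Both lay well over the median, but both carry the suffixes described above. The remaining one (240437_at), without a suffix, had 2.53 and 2.75 and was below the median on both arrays. Thus CASP9 passed 2-fold on 1 probe set only, and as the mean of all 3 its difference was 0.70.

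CASP2, CASP8 and CASP10 were not higher on any probe set above the filter. CASP2, which responds to DNA damage and excess centrosomes, was lower on all 5 such probe sets, with differences between -0.75 and -0.16. CASP8, the initiator of the death receptor route, had 6.87 in AGS.veh and 6.20 in AGS.W on its single probe set above the filter. Its dimmer probe sets were higher by 0.25 and identical on both arrays. CASP10, a close relative of CASP8, differed by -0.08. CFLAR, CASP10 and CASP8 follow each other on chromosome 2 with no protein-coding gene between them.

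The apoptosome and the proteins that mitochondria release had log2 differences between -0.51 and 0.27, and none of the 6 genes was 1.5-fold apart on its brightest probe set. APAF1, the scaffold of the apoptosome, had 5.97 in AGS.veh and 5.54 in AGS.W on one probe set, but 5.06 and 5.12 on another above the filter. CYCS, cytochrome c, had differences of -0.11 and -0.49 on its probe sets above the filter. AIFM1 and ENDOG, a pair of mitochondrial proteins tied to DNA cleavage without caspases, had differences of -0.37 and -0.51. On the other side were DIABLO and HTRA2, both of which relieve caspases of their inhibitors, with 0.15 and 0.27, although a second HTRA2 probe set had -0.10.

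The 3 inhibitors of apoptosis among the members had small positive differences of 0.19 to 0.26 on their brightest probe sets. Of their 10 probe sets, all above the filter, 9 were higher and 1 was identical, and 7 of the 10 read XIAP alone. Of all 23332 probe sets with 1 gene above the filter, 10745 were higher and 975 identical. XIAP, which binds and blocks caspases directly, had 8.35 in AGS.veh and 8.59 in AGS.W, and its 7 probe sets ranged from 0.00 to 0.66. BIRC2, a ubiquitin ligase of the tumour necrosis factor receptor complex, had a difference of 0.26 on its only probe set. BIRC6, a very large member that also restrains autophagy, had 0.19 and 0.18. None reached 1.5-fold on its brightest probe set. Relatives outside the members, named after their values were seen, did not share a direction. BIRC7 differed by 0.94 and BIRC5, survivin, by 0.54, whereas NAIP had -0.22 and -0.26 on its probe sets above the filter. NAIP was close to the array median, with 4.19 in AGS.veh and 3.98 in AGS.W, the latter below it, on its brightest probe set.

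Among the members of the BCL2 family, BID had the largest difference as the mean of probe sets, while by brightest probe set HRK had 0.76 and BID -0.69. BID links the death receptors to mitochondria once caspase-8 has cut it. It had log2 signals of 8.55 in AGS.veh and 7.86 in AGS.W (211725_s_at), 8.09 and 6.65 (227143_s_at), and 7.55 and 6.31 (204493_at). All 6 signals lay above the median and all 3 differences were negative. The last 2 probe sets were 2.70-fold and 2.35-fold lower, and the brightest one 1.61-fold lower, which is why BID is not among the genes counted as 2-fold lower. The probe set that was 2.35-fold lower has no suffix for probes that can match several transcripts. As the mean of its probe sets BID had a difference of -1.12.

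The other BH3-only genes did not share a direction. HRK, known from the death of neurons, had 5.26 in AGS.veh and 6.02 in AGS.W on its brightest probe set, but 4.46 and 4.26 on the next. BIK, a protein of the endoplasmic reticulum, was 1.46-fold higher on its single probe set. BCL2L11, the gene of BIM and a known FOXO target, had 6 probe sets above the filter, of which 3 were higher, 2 lower and 1 identical, from -0.53 to 0.40. Its brightest probe set had 6.85 in AGS.veh and 6.32 in AGS.W, so neither direction can be given for BCL2L11. BAD, which AKT phosphorylates and so holds in check, had 0.10, 0.23 and -0.54, and BMF had -0.24 close to the array median.

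The anti-apoptotic proteins, which hold BAX and BAK1 inactive, differed little. MCL1 had 10.91 in AGS.veh and 10.99 in AGS.W on its brightest probe set, while 4 dimmer ones above the filter were lower, down to -0.53. BCL2L1, the gene of BCL-XL, was lower on all 3 probe sets above the filter, from -0.33 to -0.09. BCL2 itself had -0.11 and -0.13, and BCL2L2 had 0.24. BCL2A1 was listed at 1.37 on both arrays, below the median. The pore-forming BAK1 had a difference of 0.06, and BOK, its relative, had -0.45.

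**Figure D4:**
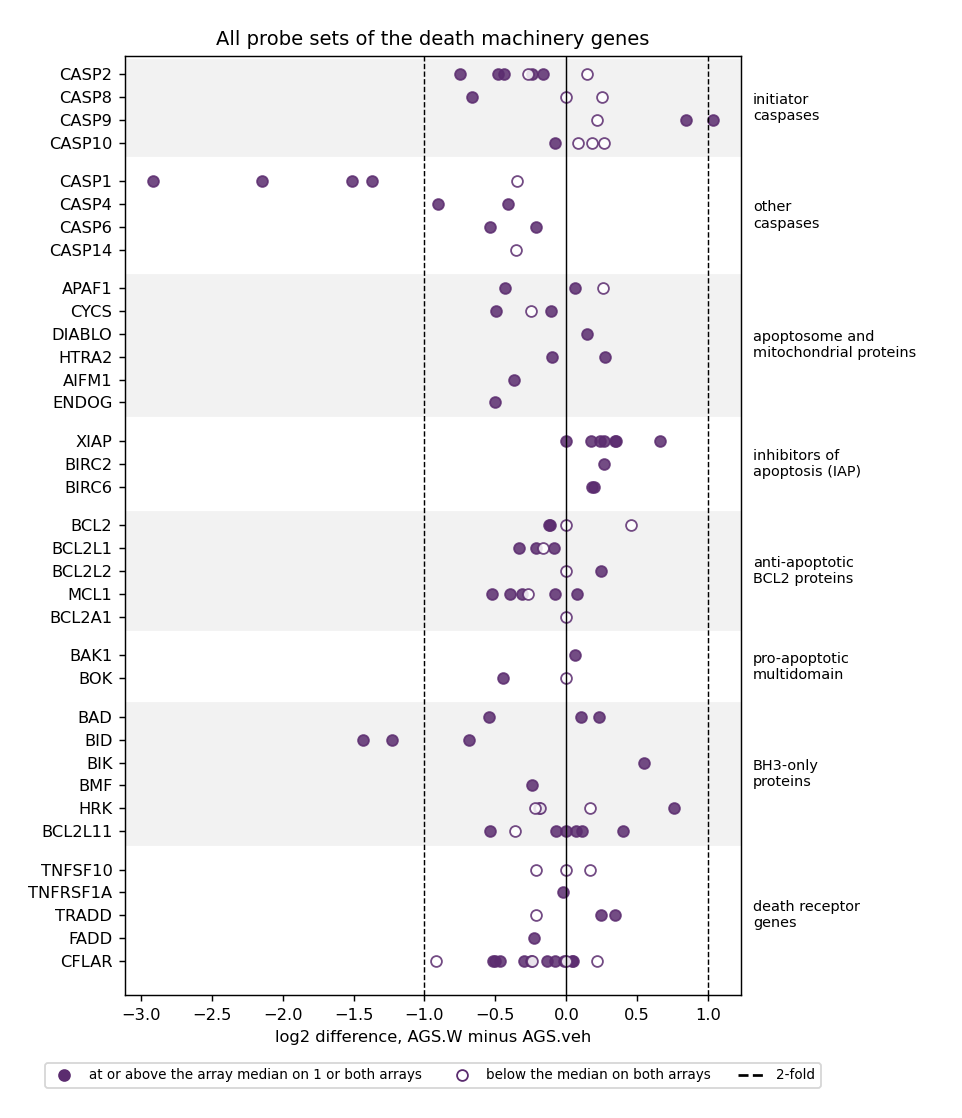
Log2 difference AGS.W minus AGS.veh (horizontal axis) of all 110 probe sets of the 35 measured members, grouped by role (vertical axis), filled where the signal reached the array median on 1 or both arrays and open where it did not, with dashed lines at 2-fold. CASP1 and BID reach past the lower line, a single CASP9 probe set passes the upper line at 1.03, and the probe sets of XIAP, BIRC2 and BIRC6 lie between 0.00 and 0.66.

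Among the members of the death receptor route, TNFRSF1A, FADD, TRADD and CFLAR had differences between -0.23 and 0.35 on their brightest probe sets. The ligand TNFSF10 (TRAIL) was below the median on each, with 1.49 in AGS.veh and 1.65 in AGS.W. The receptor TNFRSF1A differed by -0.02, the adaptor FADD by -0.23 and the adaptor TRADD by 0.35 and 0.25. CFLAR, the caspase-8-like protein without protease activity, had 8.03 and 8.07 on its brightest probe set. Of its 10 probe sets above the filter 2 were higher and 8 lower, from -0.51 to 0.05, and nearly all carry the _x_at suffix.

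Agreement between the probe sets of a gene was the measure of reading error used here. Of 19 members with several probe sets above the filter, 11 had one direction on all of them, or 57.9%, against 56.8% of 6091 genes. The median SD between the probe sets of a member was 0.24 on the log2 scale, against 0.17 over all genes, and CASP1 had the largest among members, 0.70. Many members above the filter had differences on their brightest probe sets near or below that median SD of members. They were XIAP, BIRC2, BIRC6, BCL2, BCL2L2, MCL1, BAK1, BAD, BMF, CASP10, CYCS, DIABLO, HTRA2, FADD, CFLAR and TNFRSF1A. Their own probe sets above the filter had an SD from 0.01 (BIRC6 and BCL2) to 0.41 (BAD), with 0.20 for XIAP. BIRC2, TNFRSF1A, BAK1, BMF, DIABLO and FADD have a single probe set each and so no SD. BCL2L2 and CASP10 have a single one above the filter. Probe sets share the same arrays, so their scatter does not measure the error between cultures. Values equal to every deposited digit on both arrays were found for 9 of the 110 probe sets, or 8.18%, against 11.6% of all probe sets with 1 gene.

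Other genes of the death machinery form a list of 97 that holds no member. The list was chosen with earlier results of these data known, so its shares below cannot be read as an enrichment. Of 76 that passed the filter, 4 were higher and 2 lower by 2-fold or more, or 5.26% and 2.63%, against the 1.83% and 1.94% of all genes. Their median difference was -0.04. BNIP3, a mitochondrial BH3-like protein of mitophagy, had 9.52 in AGS.veh and 11.04 in AGS.W, and its relative BNIP3L 9.54 and 10.56. RBCK1, a subunit of the linear ubiquitin ligase, was 2.57-fold higher, or 0.87 on the log2 scale as the mean of its probe sets. TNFRSF1B, the second tumour necrosis factor receptor, had 4.15 and 5.57. On the lower side, BCL2L15, a small BCL2 relative, had 7.07 and 5.49, and TNFRSF21, death receptor 6, had 7.42 and 6.21. BAX, the partner of BAK1, had -0.38, and PMAIP1, the gene of NOXA, had -0.09. BBC3 was not analysed here.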

How the data were processed

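RNA of AGS.W and AGS.veh was read on 1 array each. Each deposited value is the log2 signal of a probe set, put on a common scale by the authors, and the submitters' processing notes name RMA and MAS5 among the tools, without versions or roles. Background correction and the make-up of the probe sets are not stated there. The number of arrays limits the precision.

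AGS.veh was subtracted from AGS.W for 54613 probe sets, with 62 control probe sets left out. Annotation of 2016 gave 41091 of them 1 gene, 1801 several and 11721 none here. RefSeq gene identifiers (GRCh38.p14) served to update symbols, which failed for 54 probe sets. The fold threshold was 2, and the FDR of the study could not be computed. Members and lists, which were chosen with earlier results of these data known, comprise 8 role groups, 97 other death genes and markers of 4 tissues. The text names all members, up to 3 other death genes in each direction past 2-fold, BAX and PMAIP1. BNIP3L, BIRC5, BIRC7, NAIP, the receptors and the genes around CASP1 were picked after their values were seen. Counting was tested on simulated arrays. As alternatives, arrays were centred on their medians, quantile normalized or corrected with a lowess curve (span 0.3), the signal filter was dropped or tightened, folds of 1.5 and 3 were used, and probe sets of a gene were summarised in other ways. An offset did not apply to log2 values. The tools were Python 3.11.15, pandas 2.3.3, numpy 2.4.6, matplotlib 3.10.9 and statsmodels 0.14.6.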

Additional observations from a re-analysis of the deposited data

How the results depend on the processing

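No paired analysis was possible because the lines have 1 array apiece, and leaving out a replicate could not be done. Scaling (median centring, quantile normalization, lowess) kept CASP9 as the member at least 2-fold higher and CASP1 as the one lower, and moved no member by more than 0.05 on the log2 scale. The median of the members ranged from -0.33 (probe set of largest difference) to -0.07 (lowess), against -0.04 and -0.003 over all genes. As means of all probe sets, 0 of 30 members were 2-fold higher and 2 lower (BID, CASP1), against 143 and 136 of 11273 genes. With the probe set of largest difference, 1 of 29 members was higher (CASP9) and 2 were lower (BID, CASP1). Of 64 other death genes above the filter 5 were higher and 1 was lower (TNFRSF21). BCL2L15 then had -1.84 on a probe set under the filter. This choice of probe set called 361 genes higher and 371 lower of 11091. Without _x_at and _s_at probe sets, 21 members passed the filter. Of these 0 were higher, since CASP9 then had 0.22, and BID alone was lower, since CASP1 then had -0.35 on a dim probe set. Of 9963 genes 208 were then higher and 228 lower. With signal above the median required on both arrays, 3 of 74 member probe sets were 2-fold lower, against 320 of 21598 probe sets. At 1.5-fold, 2 members were higher and 4 lower, and 5 of the other death genes were higher and 9 lower (of 76), against 6.64% and 7.37% of all genes. Of 79 member probe sets 4 were higher and 10 lower, against 7.01% and 7.32% of all probe sets with 1 gene. At 3-fold, the counts were 0 and 0 members, 0 and 2 probe sets (both CASP1), and 0 and 0 other death genes. Of 203 alternative values of 35 members, 179 stayed within the spread of differences at the same signal. That share includes the scalings, which moved 0 values out of the spread. All 24 values that left it came from other summaries of probe sets, which cannot change a member with a single probe set. Under some such summary 8 members changed sign, among them CASP8 and HRK.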

Other observations

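Receptors were picked from the list of other death genes after their values were seen, so no direction of the group can be read from them. Of all 9 on the list (FAS and the TNFRSF symbols), each above the filter, 7 were lower and 2 higher in AGS.W, with a median of -0.63. Over all genes above the filter 50.5% were lower, with a median of -0.01. TNFRSF21 and TNFRSF1B were 2-fold apart, in opposite directions, and TNFRSF25 differed by 0.20. FAS had a signal of 7.35 in AGS.veh and 6.61 in AGS.W, and its 4 probe sets above the filter had differences between -0.96 and -0.51. TNFRSF10A, a receptor of TRAIL, had 8.04 and 7.42, and its 3 probe sets ranged from -0.83 to -0.63. The decoy receptor TNFRSF10D had 7.05 and 6.37 on its single probe set above the filter. TNFRSF10B, the other signalling receptor of TRAIL, had 9.12 and 8.96, and its probe sets above the filter ranged from -0.15 to 0.10. FAS and these 3 TRAIL receptors stayed under 2-fold on their brightest probe sets.

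The genes around CASP1 were also read after its values were seen. CASP5, which lies between CASP4 and CASP1 on chromosome 11, and CASP12 were below the median on both arrays. Their differences were -0.09 and -0.10, and CARD18 was listed at 1.99 on both arrays. Of the inflammasome sensors and the adaptor that activate caspase-1, NLRP3, NLRC4, AIM2 and PYCARD were below the median on both arrays, and NLRP1 had 5.30 in AGS.veh and 4.92 in AGS.W. CARD8 had 4.89 and 4.56 in the same order on its brightest probe set, but 4.56 and 4.66 on another above the filter. Among the substrates of caspase-1, IL18 had 7.41 in AGS.veh and 6.92 in AGS.W, and GSDMD 5.31 and 5.46. IL1B had 4.15 and 4.02, close to the array median, and 3.58 and 3.70 on a dimmer probe set below it. The interleukin-1 receptor gene IL1R1 had 2.89 in AGS.veh, below the median, and 4.03 in AGS.W, just above it.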
